A study of Mus musculus with 57 samples.

Results

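Laminins, nidogens and perlecan were followed through the retinoic acid (RA) differentiation of mouse embryonic stem cells as 8 genes of the 55450 in the count table. The genes were chosen by name, with earlier results of these data known, and found through the gene symbols of the annotation used for counting. They comprise the laminin alpha chains Lama1 and Lama5, the beta chains Lamb1 and Lamb2, the gamma chain Lamc1, the nidogens Nid1 and Nid2, and Hspg2, which codes for the core protein of perlecan. All 8 passed the filter on low counts in every comparison.

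Laminins are secreted as trimers of an alpha, a beta and a gamma chain, and trimers assembled on the cell surface form the first sheet of a basement membrane. Nidogens bind the gamma chain and link this sheet to the collagen IV network, and perlecan, a heparan sulfate proteoglycan, joins both. Parietal endoderm, the extra-embryonic lineage that lines the yolk sac, is known for the thick basement membrane that it secretes, in which the trimer of Lama1, Lamb1 and Lamc1 products (laminin-111) is abundant.

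All cells were of the Sox1-EGFP/FoxA2mCherry line, which is 1 clone of mouse embryonic stem cells with EGFP in place of Sox1 on one allele and mCherry fused to the C-terminus of FOXA2, so that undifferentiated and FOXA2- cells carried both reporters as well. Before differentiation, cells were kept in serum-based medium with leukaemia inhibitory factor. Cells at day 0 (D0), before any RA, were sorted as Sox1-FOXA2-. After 2, 4 or 6 days (D2, D4, D6) in N2B27 medium with 1 uM RA, fluorescence sorting gave 4 gates, with neither marker (Sox1-FOXA2-), with one (Sox1+FOXA2- or Sox1-FOXA2+) and with both (Sox1+FOXA2+). In the second arm, the 3 gates with a marker were sorted at D2 and replated in serum-based medium with 1 uM RA, and their progeny were taken at D4 and D6 without a second sort. There were 3 biological replicates of each of 19 conditions, 57 libraries in all, of which 39 were of sorted cells and 18 of progeny. Replating, the change of basal medium and the lack of a second sort went together, so that they cannot be told apart when progeny are set against sorted cells.

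Library totals over all genes lay between 10170632 and 81845651 counts (median 36694379), and 14458 to 27832 genes had at least 1 count. Foxa2, the gene behind one gate, was at 1478 to 2697 normalized counts in the D6 Sox1-FOXA2+ libraries and at 20.3 to 131 in D6 Sox1+FOXA2- libraries (difference on the log2 scale 4.76 ± 1.75, adjusted p = 0.319), and Sox1 was listed at 0 counts in all 57 libraries. In D6 Sox1+FOXA2+ cells Foxa2 ran from 0 to 728 normalized counts, which goes against the gate in at least 1 library, and replicate 2 of that group had the fewest detected genes of all libraries, 14458. Levels below are counts divided by DESeq2 size factors (normalized counts). Differences are log2 fold changes from edgeR's quasi-likelihood test with their standard error (SE), and a gene is called at an adjusted p (Benjamini-Hochberg, over all genes tested) under 0.05.

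In laminin-111 the alpha chain is Lama1 (ENSMUSG00000032796.8), which lies on the plus strand of GRCm38 chr17:67697259-67822647. At D0 the 3 libraries held 2884, 202 and 4136 normalized counts of Lama1. In Sox1-FOXA2+ cells the values were 2890.5, 15672 and 24999 at D2, 385740, 141850 and 288890 at D4, and 605980, 288350 and 284520 at D6. Sox1+FOXA2- cells held 5195, 3325 and 1547 at D2, and 2286, 1762 and 2031 at D6. All 3 Sox1-FOXA2+ libraries lay far above all 3 Sox1+FOXA2- libraries at D4 and D6, whereas at D2 the groups overlapped.

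Lamb1 (ENSMUSG00000002900.16, plus strand of chr12:31265234-31329644) codes for the beta chain of laminin-111. It started from 2426, 2689 and 2704 normalized counts at D0 and was at 12026, 14529 and 18961 in Sox1-FOXA2+ cells already at D2. At D6 these cells held 297700, 143760 and 167500, and Sox1+FOXA2- cells 4812, 2204 and 5420. At D2 Sox1+FOXA2- cells held 9303, 8844 and 4181, and the difference between these groups was 1.05 ± 0.46 (adjusted p = 0.915).

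Lamc1 (ENSMUSG00000026478.14, minus strand of chr1:153218922-153332786) codes for the gamma chain that most laminins share. Its normalized counts in Sox1-FOXA2+ cells were 11191, 13809 and 21336 at D2 and 453020, 209510 and 202990 at D6. In Sox1+FOXA2- cells they were 8078, 3542 and 9092 at D6, below every Sox1-FOXA2+ library of that day.

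**Figure D1:**
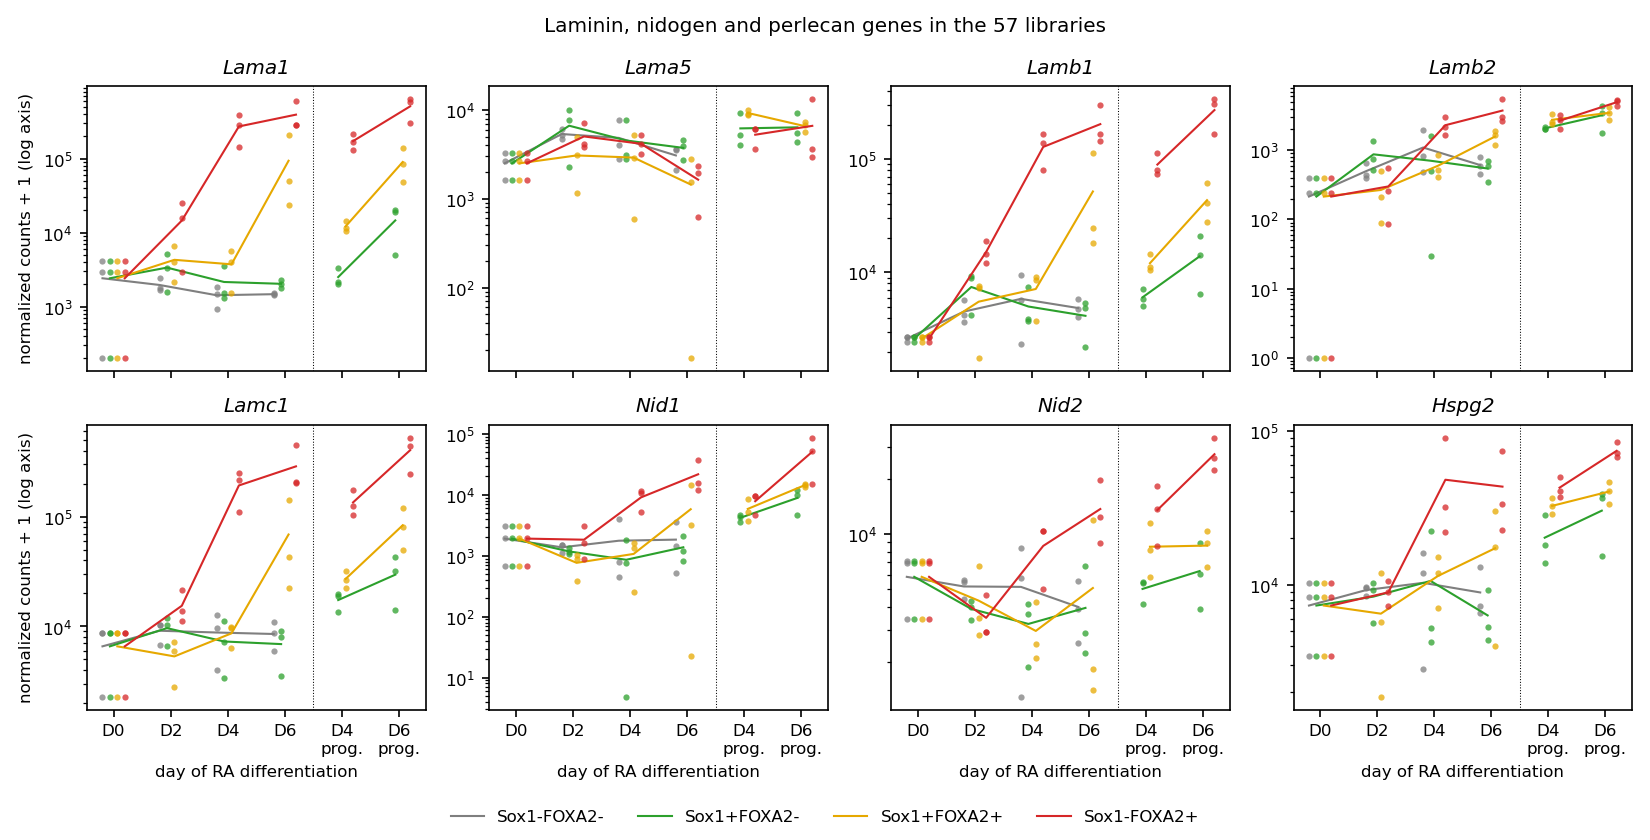
Normalized counts plus 1 (log axis) of the 8 genes against day of RA differentiation; points are single libraries, lines join means of 3 libraries, colours are the sorted populations, and the dotted line divides sorted cells from the progeny of cells sorted at D2. The same 3 D0 libraries start every line. Lama1, Lamb1 and Lamc1 separate in Sox1-FOXA2+ cells from D4, and Lama5 shows no such separation.

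Between the single-positive populations of one day, 0 of the 8 genes were called at D2, where 0.00491% of the 20369 genes tested were called, and 2 of the 8 had an unadjusted p under 0.05 (1031 of all genes). At D4, 3 of 8 were higher in Sox1-FOXA2+ cells than in Sox1+FOXA2- cells, against 0.205% of 22946 genes. They were Lama1 at 6.97 ± 0.71 (SE, adjusted p = 2.15e-04), Lamb1 at 4.68 ± 0.57 (adjusted p = 3.53e-04) and Lamc1 at 4.75 ± 0.52 (adjusted p = 9.72e-05). At D6, 5 of 8 were higher, against 1% of 24203 genes, and the median difference of the 8 genes was 3.62 beside -0.30 over all genes. In bulk samples more cells that make a transcript and more of it per cell cannot be told apart.

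The 3 chains of laminin-111 showed the largest D6 differences of the 8 genes. Lama1 was higher by 7.82 ± 0.86 on the log2 scale (225-fold, adjusted p = 5.80e-04), Lamb1 by 5.83 ± 0.75 (57-fold, adjusted p = 1.26e-03) and Lamc1 by 5.62 ± 0.77 (49.1-fold, adjusted p = 2.54e-03). Without replicate 3 of D6 Sox1+FOXA2- cells, the adjusted p was 0.0539 for Lamb1 and 0.0749 for Lamc1. At D4, leaving out replicate 2 of Sox1+FOXA2- cells gave 0.0554 for Lama1 and 0.0743 for Lamb1.

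Lamb2 and Hspg2 were also called at D6. Lamb2 (ENSMUSG00000052911.9, plus strand of chr9:108479736-108490530), the alternative beta chain, was low throughout, at 5505, 2672 and 3040 normalized counts in D6 Sox1-FOXA2+ cells and 696, 351 and 581 in Sox1+FOXA2- cells. The groups did not overlap, and the difference was 3.0 ± 0.57 (adjusted p = 2.46e-03), or 0.0829 without replicate 1 of Sox1-FOXA2+ cells and 0.0814 with all 57 libraries in 1 fit. Hspg2 (ENSMUSG00000028763.17, plus strand of chr4:137468769-137570630) was at 73946, 33369 and 22540 in the former and at 9226, 4393 and 5301 in the latter, which differed by 3.02 ± 0.66 (adjusted p = 0.0382). This Hspg2 call was lost with the replicate block (adjusted p = 0.0794), without replicate 2 of Sox1-FOXA2+ cells (0.113), and without replicate 1, 2 or 3 of Sox1+FOXA2- cells (0.0593, 0.268 and 0.429).

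The nidogens were higher in every D6 Sox1-FOXA2+ library than in any Sox1+FOXA2- library but were not called. In this comparison all 8 genes had groups that did not overlap, beside 23.2% of all genes. Nid1 (ENSMUSG00000005397.8, plus strand of chr13:13437551-13512269) was at 37779, 12087 and 15357 normalized counts against 1189, 822 and 2118, a difference of 4.22 ± 1.68 (adjusted p = 0.371). Nid2 (ENSMUSG00000021806.4, plus strand of chr14:19751265-19811787) was at 19757, 8943 and 12382 against 2876, 2228 and 6718, a difference of 2.02 ± 0.75 (adjusted p = 0.337). In Nid2, 8.45% of the exon bases overlap Rtraf on the other strand, and in Nid1 2.06% overlap Gm48682. At D4 the replicate block brought calls for Nid2 (1.47, adjusted p = 0.0499) and Hspg2 (2.32, adjusted p = 2.86e-03), which had 0.520 and 0.881 without it.

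Lama5 (ENSMUSG00000015647.9, minus strand of chr2:180176373-180225859), the alpha chain of laminins in most epithelia of the later embryo, was called in 0 of the 41 comparisons made here. Its D6 values were 1956, 2332 and 630 normalized counts in Sox1-FOXA2+ cells and 4551, 2717 and 3946 in Sox1+FOXA2- cells (log2 fold change -0.94 ± 1.11, adjusted p = 0.847), so that every Sox1-FOXA2+ library was the lower, without overlap. Within Sox1-FOXA2+ cells it differed between D6 and D2 by -1.63 ± 0.56 (adjusted p = 0.187). In the order of its 19 condition means, all 18 pairs of neighbours overlapped. The lowest library was replicate 2 of D6 Sox1+FOXA2+ cells, at 15.2 normalized counts, where the other replicates held 2793 and 1529.

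Bases upstream of the start site were read from RefSeq promoters on GRCm38.p6, which matched 5 of the 8 genes (Lama5, Lamb1, Lamb2, Nid1 and Hspg2). Windows end at the RefSeq start site. Those of Lamb1, Lamb2, Nid1 and Hspg2 thus reach past the gene start of the annotation used for counting. The 250 bases before the start of Lamb1, which was higher in Sox1-FOXA2+ cells, and of Lama5, which was not called, are shown on the strand of each gene, with the GC box (GGGCGG on one strand, which reads as CCGCCC on the other) in capitals:
Lamb1, chr12:31265043-31265292, plus strand: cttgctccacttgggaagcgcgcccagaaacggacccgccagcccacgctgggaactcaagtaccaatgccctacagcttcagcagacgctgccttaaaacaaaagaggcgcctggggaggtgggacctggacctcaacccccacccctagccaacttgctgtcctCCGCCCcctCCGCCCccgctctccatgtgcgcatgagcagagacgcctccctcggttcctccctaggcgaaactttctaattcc
Lama5, chr2:180225860-180226109, minus strand: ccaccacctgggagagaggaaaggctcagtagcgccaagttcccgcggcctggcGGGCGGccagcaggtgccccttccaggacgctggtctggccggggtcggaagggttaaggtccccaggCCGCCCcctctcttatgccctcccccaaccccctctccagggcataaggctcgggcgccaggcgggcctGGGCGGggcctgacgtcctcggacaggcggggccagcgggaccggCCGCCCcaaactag
Lamb1 held 2 GC boxes and Lama5 4, and both windows were rich in G and C (62.0% and 72.4%). Hspg2 held 5, Nid1 1 and Lamb2 0 in their own windows, and 32.9% of the 27025 genes with a promoter held at least 1. None of the 5 windows held, on either strand, the letters AGATAA that factors of the GATA family bind, which 10.3% of all genes hold there. The same was true of the forkhead motif TGTTTAC, found for 3.09% of all genes, and of the SOX motif ACAAT, found for 28.3%. It was true as well of the hexamers bound by retinoic acid receptors, of which AGGTCA was found for 13.8% of all genes and the variant GGTTCA for 8.87%.

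**Figure D2:**
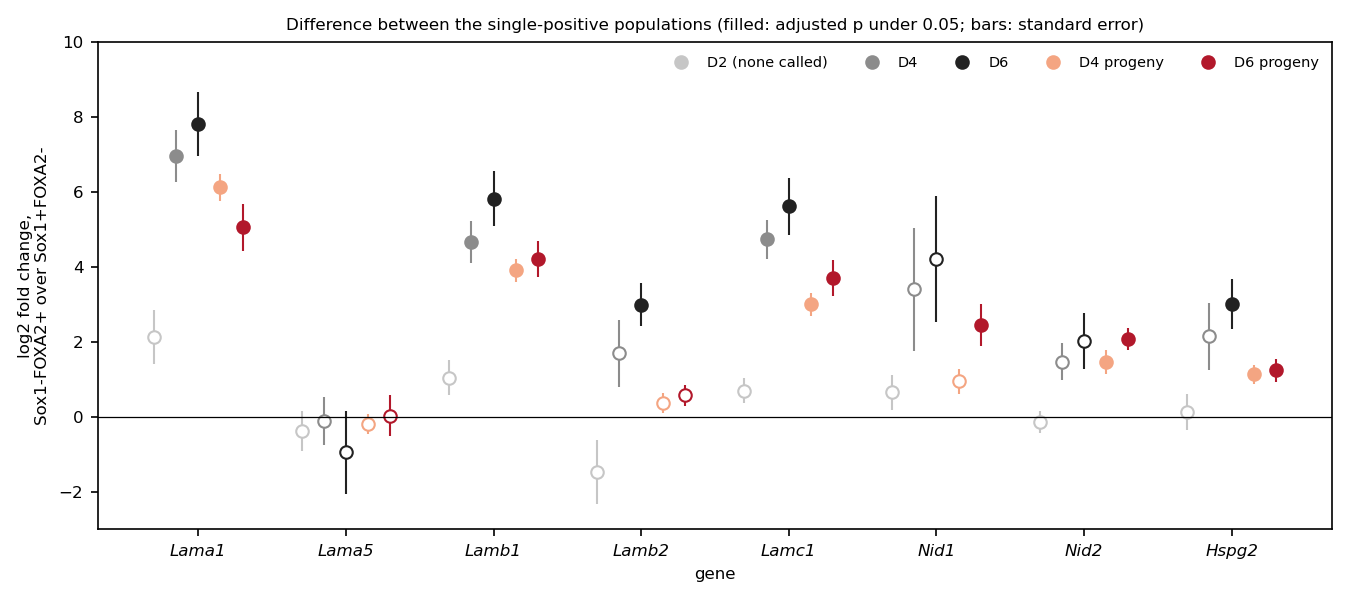
Log2 fold change of Sox1-FOXA2+ over Sox1+FOXA2- cells for the 8 genes at D2, D4 and D6 and in the progeny at D4 and D6, with standard errors as bars; filled points passed an adjusted p of 0.05. Lama1 is at 2.14 at D2, where it was not called, and at 7.82 at D6, and no point of Lama5 is filled.

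Against Sox1-FOXA2- cells, which showed neither reporter, 3 of 8 genes were higher in Sox1-FOXA2+ cells at D4 (0.279% of all genes) and 4 of 8 at D6 (0.653%). At D6 these were Lama1 at 8.10 ± 0.87 (adjusted p = 5.41e-04), Lamb1 at 5.41 ± 0.73 (adjusted p = 2.43e-03), Lamc1 at 5.12 ± 0.75 (adjusted p = 5.23e-03) and Lamb2 at 2.65 ± 0.56 (adjusted p = 9.36e-03). Of these, Lamb1 and Lamc1 were lost on leaving out replicate 1, 2 or 3 of Sox1-FOXA2- cells (0.0917, 0.0562 and 0.0529 for Lamb1, and 0.135, 0.0840 and 0.0669 for Lamc1), and Lamb2 without replicate 1 or 2 of them or replicate 1 of Sox1-FOXA2+ cells (0.0572, 0.0565 and 0.228), or with all 57 libraries in 1 fit (0.194). Pluripotency markers (Nanog, Pou5f1, Zfp42, Esrrb, Klf4 and Tfcp2l1) moved with this comparison, with sums of 3345 to 4341 normalized counts in Sox1-FOXA2+ and 9702 to 38130 in Sox1-FOXA2- libraries at D4 (3 of 6 called lower, median -2.54) and 5007 to 7592 and 14630 to 20470 at D6 (1 of 6), and their part was not tested. At D4 the replicate block added Hspg2 (2.21, adjusted p = 4.46e-03, 0.681 without it). With Sox1+FOXA2- cells set against the double-negative cells, 0 of 8 genes were called at D2, D4 and D6, where edgeR called 0% of all genes, and 590, 1150 and 785 of all genes but 0 of the 8 had an unadjusted p under 0.05.

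The change of the difference between the single-positive populations from D2 to D6 was tested itself. It was positive and called for 5 of 8 genes, beside 0.422% of 22532 genes. The change was 4.94 ± 0.60 for Lamc1 (adjusted p = 2.19e-03), 4.79 ± 0.55 for Lamb1 (adjusted p = 4.80e-04), 4.47 ± 0.84 for Lamb2 (adjusted p = 9.12e-03), 3.59 ± 0.70 for Nid1 (adjusted p = 0.0284) and 2.18 ± 0.50 for Nid2 (adjusted p = 0.0402). For Lamb2 and Nid2 the change includes a turn of sign. Their differences at D2 were -1.48 ± 0.86 and -0.15 ± 0.30, and neither was called. The change for Lama1, 5.70 ± 1.09, had an adjusted p of 0.0804, with D2 libraries from 2890.5 to 24999 normalized counts, and that for Hspg2, 2.90 ± 0.62, one of 0.0528. With all 57 libraries in 1 fit the adjusted p was 0.177 for Lamb2, 0.399 for Nid1 and 0.304 for Nid2, and without robust estimation 0.0919 for Nid2. Left-out libraries ended the call of Nid1 in 6 of 12 fits (any of D2 Sox1+FOXA2-, replicate 2 of D2 Sox1-FOXA2+, replicates 1 and 2 of D6 Sox1+FOXA2-) and that of Nid2 in 8 of 12 (the same 6, and replicate 1 of D2 and of D6 Sox1-FOXA2+), with adjusted p up to 0.169 and 0.171.

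D0 cells were all Sox1-FOXA2- and came before the change to N2B27 medium with RA. Day, this change of medium and gate thus cannot be told apart when D2 cells of another gate are set against them. Lamb1 was the only gene of the 8 called between D2 Sox1-FOXA2+ cells and D0, higher by 2.56 ± 0.31 (adjusted p = 5.29e-06), where 2.47% of 22882 genes were higher. Lama1 differed by 2.65 ± 0.92 (adjusted p = 0.148). The pluripotency sum was 25290 to 77670 normalized counts at D0 and 2214 to 2717 in these D2 cells, with 5 of 6 markers called lower (median -4.42), and its part was not tested. From D2 to D6 within the Sox1-FOXA2+ gate, 6 of 8 genes rose, against 1.3% of all genes: Lamb1 by 3.69 ± 0.33, Lamc1 by 4.19 ± 0.54, Nid2 by 1.93 ± 0.34, Lama1 by 4.72 ± 1.00, Nid1 by 3.54 ± 0.78 and Hspg2 by 2.23 ± 0.54. The calls of Lama1, Nid1 and Hspg2 (adjusted p = 0.0323, 0.0357 and 0.0445) were lost on leaving out any one of the 6 libraries but replicate 3 of D6, with p up to 0.119, 0.163 and 0.215. With all 57 libraries in 1 fit Nid1, Nid2 and Hspg2 were not called (0.180, 0.0986 and 0.117). Lamb1 was also higher at D2 than at D0 in Sox1+FOXA2- cells, by 1.55 ± 0.41 (adjusted p = 0.0475, 1.58% of all genes higher), a call that was lost without any one of 5 of the 6 libraries (adjusted p from 0.0921 to 0.183), all but replicate 3 of D2, and without robust estimation (0.0538). From D2 to D6, 0 of the 8 genes were called in Sox1+FOXA2- cells (0.0446% of all genes called) and in Sox1-FOXA2- cells (0.0188%), with 2 and 1 of the 8 at an unadjusted p under 0.05 (3276 of 24647 and 1454 of 21278 genes).

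Markers of extra-embryonic endoderm moved with these genes. The summed level of Foxa2, Gata4, Gata6, Sox7, Sox17 and Dab2 ran from 74680 to 105000 normalized counts in D6 Sox1-FOXA2+ libraries and from 1943 to 3282 in Sox1+FOXA2- libraries, and 3 of the 6 markers, Gata4, Gata6 and Dab2, were called higher. Neuroectoderm markers (Sox1, Nes, Pax6, Meis2, Sox9 and Nr2f2) summed to 4399 to 5184 and 16980 to 17800 in the same groups, with Pax6 and Meis2 called lower. Pluripotency markers summed to 5007 to 7592 and 4695 to 16430, endothelial markers (Pecam1, Cdh5, Kdr and Tek) to 1394 to 2142 and 2282 to 4117, trophoblast markers (Cdx2, Elf5 and Tfap2c) to 191 to 412 and 306 to 1373, and neural crest markers (Sox10, Foxd3 and Tfap2b) to 30.5 to 675 and 762 to 1035, with 0 called in each. Mesoderm and mesenchyme markers (T, Mesp1, Twist1, Prrx1, Col1a1 and Acta2) summed to 326 to 554 and 739 to 2050. The part of any of these cell types in the difference of the 8 genes was not tested.

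Sox1+FOXA2+ cells, which carry both markers, held little of these transcripts at D4. Their Lama1 was at 5590, 1544 and 4023 normalized counts, within the range of Sox1+FOXA2- cells (1316 to 3578) in 1 library and above it in the others. Against Sox1-FOXA2+ cells of D4, 3 of 8 genes were lower (0.414% of all genes), Lama1 by -6.43 ± 0.69 (adjusted p = 3.08e-04), Lamc1 by -4.76 ± 0.52 (adjusted p = 9.29e-05) and Lamb1 by -4.43 ± 0.56 (adjusted p = 5.35e-04). Against Sox1+FOXA2- cells 0 of 8 were called at D4, with 0 of 8 at an unadjusted p under 0.05 (edgeR called 0% of all genes).

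At D6 the Sox1+FOXA2+ libraries were spread over a wide range between the single-positive populations. Lama1 was at 23941, 49196 and 207440 normalized counts, Lamb1 at 18129, 24641 and 112430, and Lamc1 at 22232, 42667 and 142060. For each of these 3 chains, every library lay above every Sox1+FOXA2- library (8.99% of all genes did not overlap between these groups) and below every Sox1-FOXA2+ library (11.5%). Against Sox1+FOXA2- cells, Lama1 was higher by 5.43 ± 0.77 (adjusted p = 0.0282), the only call among the 8, beside 0.0496% of all genes. This call was lost with the replicate block (adjusted p = 0.406), and without replicate 1, 2 or 3 of Sox1+FOXA2- cells (0.280, 0.642 and 0.665) or replicate 2 of Sox1+FOXA2+ cells (0.274). It was also lost without the filter on low counts (0.113) and with only the 2 groups in the fit (0.13).

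The endoderm marker sum in these 3 D6 libraries was 14560, 63190 and 48580 normalized counts, so that the library with the highest laminin chains was not the one with the highest sum. Replicate 2, with that highest sum, held 21.2 normalized counts of Nid1, 1407 of Nid2 and 3963 of Hspg2, whereas replicate 3 held 14242, 11958 and 30030. When D6 Sox1+FOXA2+ cells were set against Sox1-FOXA2+ cells, 0 of 8 genes were called (0.0248% of all genes lower), although 6 of 8 had an unadjusted p under 0.05 (3432 of 24203 genes). Without replicate 3 of Sox1+FOXA2+ cells, 4 of 8 were called, and with DESeq2's Wald test 4 of 8. The share of all genes called is not given for either setting, so neither count is read as a result about the 8 genes.

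Sox1+FOXA2+ cells of D2 differed in 0 of the 8 genes from either single-positive population, where edgeR called 0% of all genes. Against Sox1-FOXA2+ cells, 4 of 8 had an unadjusted p under 0.05 (1731 of 20369 genes), all with lower values. Lamb1, at 7272, 7533 and 1769 normalized counts, and Lamc1, at 7192, 5994 and 2811, lay below every Sox1-FOXA2+ library (8.5% of all genes did not overlap), with differences of -1.43 ± 0.47 and -1.5 ± 0.34 (adjusted p = 0.577 for each). DESeq2's Wald test called Lamc1 (adjusted p = 4.86e-03). Lama1 was at 2147, 6631 and 4050, overlapping both single-positive populations, and against Sox1+FOXA2- cells 1 of 8 genes had an unadjusted p under 0.05 (1530 of all genes).

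In the progeny the laminin-111 chains separated by the population of origin. Lama1 in the progeny of Sox1-FOXA2+ cells was at 132260, 218080 and 166770 normalized counts at D4 and 301530, 640850 and 584510 at D6. In the progeny of Sox1+FOXA2- cells it was at 2018, 2154 and 3329 at D4 and 19929, 18816 and 5023 at D6. The progeny of Sox1+FOXA2+ cells held 11695, 14182 and 10498 at D4 and 137870, 83860 and 47934 at D6, between the others in every library at both days.

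At D4, 5 of 8 genes were higher in the progeny of Sox1-FOXA2+ cells than in that of Sox1+FOXA2- cells, against 1.44% of 20697 genes. Lama1 was higher by 6.13 ± 0.36 (adjusted p = 9.10e-09), Lamb1 by 3.91 ± 0.31 (adjusted p = 5.35e-07) and Lamc1 by 3.0 ± 0.30 (adjusted p = 1.40e-05). Nid2, at 1.47 ± 0.31 (adjusted p = 0.0150), was lost without replicate 3 of Sox1-FOXA2+ progeny (0.0615). Hspg2, at 1.13 ± 0.26 (adjusted p = 0.0250), was lost without replicate 2 or 3 of either population (0.0673 and 0.0613, 0.128 and 0.102), and with only the 2 groups in the fit (0.0736). With all 57 libraries in 1 fit neither Nid2 nor Hspg2 was called (adjusted p = 1 for each). The replicate block added Nid1 (0.84, adjusted p = 0.0406, 0.232 without it).

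At D6, 6 of 8 genes were higher in the progeny of Sox1-FOXA2+ cells, against 3.59% of 21069 genes, with a median over the 8 of 2.27 beside -0.04 over all genes. Lama1 was higher by 5.07 ± 0.63 (33.5-fold, adjusted p = 7.31e-04), Lamb1 by 4.22 ± 0.48 (18.7-fold, adjusted p = 2.33e-04) and Lamc1 by 3.71 ± 0.47 (13.1-fold, adjusted p = 4.74e-04). Nid2 was at 33530, 26144 and 22268 normalized counts against 6008, 8910 and 3883, a difference of 2.08 ± 0.30 (adjusted p = 5.25e-04). Hspg2, at 83771, 71106 and 66999 against 36641, 38607 and 15405, differed by 1.24 ± 0.30 (adjusted p = 0.0197). Nid1, at 14881, 85921 and 52002 against 9813, 12226 and 4682, differed by 2.46 ± 0.57 (adjusted p = 0.0297). The Nid1 call was lost on leaving out any one library but replicate 1 of Sox1-FOXA2+ progeny (adjusted p from 0.0668 to 0.173). With all 57 libraries in 1 fit the adjusted p was 0.739 for Nid1, 0.814 for Hspg2 and 0.0508 for Nid2, and with only the 2 groups 0.0589 for Nid1 and 0.0586 for Hspg2.

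Lamb2 and Lama5 were not called between the D6 progeny. Lamb2 was at 4361, 5169 and 5267 normalized counts against 3475, 4352 and 1765 (0.57 ± 0.29, adjusted p = 0.344), close in both. Lama5 was at 13310, 3610 and 2952 against 5437, 9306 and 4378 (0.03 ± 0.55, adjusted p = 0.993), and its sign turned in the fit with the replicate block and in 3 of the 6 fits without one library.

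Markers of other cells moved with the origin of the progeny too. At D6 the endoderm sum was 51490 to 100600 normalized counts in the progeny of Sox1-FOXA2+ cells and 6966 to 8876 in that of Sox1+FOXA2- cells, with 6 of 6 markers called higher. The sum of mesoderm and mesenchyme markers (T, Mesp1, Twist1, Prrx1, Col1a1 and Acta2) was 2384 to 12050 and 54720 to 78540, with Twist1 and Acta2 called lower of the 4 tested. Neuroectoderm markers summed to 6171 to 9633 and 42540 to 66240, with 5 of the 5 tested lower (Sox1 was at 0). Of the remaining lists, pluripotency sums were 4951 to 13080 and 1647 to 4851 (Klf4 called higher), endothelial sums 2341 to 3183 and 849 to 1177 (Tek called higher), trophoblast sums 343 to 704 and 112 to 996, and neural crest sums 24.1 to 55.7 and 0 to 98.4, with 0 called in the last pair. The part of these lists in the difference was not tested.

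The progeny of Sox1+FOXA2+ cells held less of the laminin-111 chains than those of Sox1-FOXA2+ cells. At D4, 3 of 8 genes were lower (0.676% of all genes), Lama1 by -3.93 ± 0.32 (adjusted p = 1.80e-06), Lamb1 by -2.99 ± 0.29 (adjusted p = 2.47e-05) and Lamc1 by -2.41 ± 0.29 (adjusted p = 2.95e-04). The replicate block added Lama5 as higher there (0.77, adjusted p = 0.0335, 0.374 without it). At D6, 4 of 8 were lower (2.35% of all genes), Lamb1 by -2.65 ± 0.45 (adjusted p = 5.67e-03), Lama1 by -2.52 ± 0.56 (adjusted p = 0.0307), Lamc1 by -2.29 ± 0.44 (adjusted p = 0.0121) and Nid2 by -1.69 ± 0.30 (adjusted p = 4.25e-03), and the block added Hspg2 (-0.90, adjusted p = 0.0423, 0.118 without it). The D6 calls of Lama1 and Lamc1 were lost without replicate 3 of Sox1-FOXA2+ progeny (0.146 and 0.0664) or replicate 2 or 3 of Sox1+FOXA2+ progeny (0.158 and 0.116 for Lama1, 0.0806 and 0.0525 for Lamc1), and that of Lama1 also without replicate 2 of Sox1-FOXA2+ progeny (0.121). With all 57 libraries in 1 fit, Lamc1 at D4 (0.127) and Lama1, Lamc1 and Nid2 at D6 (0.186, 0.0525 and 0.227) were not called.

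Against the progeny of Sox1+FOXA2- cells, Lama1 was higher in the progeny of Sox1+FOXA2+ cells at D4, by 2.20 ± 0.30 (adjusted p = 0.0113), when it was the only gene called of all tested (0.00483% of 20697). The call was lost without robust estimation of the spread (0.0938), with only the 2 groups (0.0926) and with all 57 libraries in 1 fit (1). With the block Lamb1 joined it (0.92, adjusted p = 0.0456, 0.791 without). At D6 Lama1 differed by 2.55 ± 0.56 (adjusted p = 0.174), Lamb1 by 1.57 ± 0.43 (adjusted p = 0.284) and Lamc1 by 1.42 ± 0.43 (adjusted p = 0.328). For each of these 3 chains the lowest Sox1+FOXA2+ library lay above the highest Sox1+FOXA2- library (16.5% of all genes did not overlap). Of the 8 genes 0 were called, where edgeR called 0.161% of all genes higher, and 3 had an unadjusted p under 0.05 (1976 of 21069 genes). DESeq2's Wald test called 2 of the 8, and no share of all genes is given for that test.

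Compared with cells sorted directly at D6, the progeny of Sox1+FOXA2- cells held more of 3 of the 8 genes, against 2.3% of 24647 genes higher. Lamb1, at 14321, 20855 and 6410 normalized counts in progeny, was higher by 2.02 ± 0.42 (adjusted p = 6.38e-03). Lamc1, at 31943, 42985 and 14074, was higher by 2.38 ± 0.56 (adjusted p = 0.0249), and Hspg2 by 2.52 ± 0.65 (adjusted p = 0.0448). Calls for Lamc1 and Hspg2 were lost on leaving out any one of the 6 libraries but replicate 3 of the progeny, with adjusted p up to 0.123 and 0.208. Lama1 differed by 3.11 ± 0.89 (adjusted p = 0.0799). The sum of mesoderm and mesenchyme markers was 739 to 2050 normalized counts in the sorted cells and 54720 to 78540 in the progeny. The endoderm sum was 1943 to 3282 and 6966 to 8876, with 0 of 6 markers called, and the neuroectoderm sum 16980 to 17800 and 42540 to 66240, with 1 of 5 called. The part of these lists in the differences was not tested. These progeny were not sorted again at D6, so that cells which had left the gate could be among them.

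Between D4 and D6 progeny, 0 of 8 genes were called in any of the 3 gates, where edgeR called 0% of all genes in each. At an unadjusted p under 0.05 the counts were 4 of 8 from Sox1-FOXA2+ cells (751 of all genes), 2 from Sox1+FOXA2- cells (736) and 3 from Sox1+FOXA2+ cells (324). The change of the difference between the single-positive populations from D4 to D6 progeny was called for 0 of 8 genes (0.00454% of all genes, 0 of 8 at an unadjusted p under 0.05).

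For the Sox1-FOXA2+ gate, 0 of 8 genes were called between D6 progeny and D6 sorted cells (0.271% of all genes called) and 2 had an unadjusted p under 0.05 (2188 of 22882 genes). The differences ran from 0.41 ± 0.86 for Lama1 to 2.06 ± 0.57 for Lama5 (adjusted p = 0.175). Relative to D2 cells of the same gate, 6 of 8 genes were higher in D6 progeny (2.87% of all genes), led by Lama1 at 5.13 ± 1.02 (adjusted p = 0.0123), Nid1 at 4.80 ± 0.82 (adjusted p = 3.95e-03) and Lamc1 at 4.71 ± 0.55 (adjusted p = 6.68e-05). The Lama1 call there was lost without replicate 2 of D2 (0.0572). D6 sorted cells and D6 progeny were set against the same D2 libraries. In the Sox1+FOXA2+ gate, Lamc1 was the only gene of the 8 higher in D6 progeny than at D2, by 3.96 ± 0.73 (adjusted p = 0.0127, 1.01% of all genes), which was lost without any one of 5 of the 6 libraries (adjusted p from 0.0503 to 0.0764).

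The balance between alternative chains was read from counts per kilobase of exon, as the share of one chain in its pair. Lama1 made up 99.6% ± 0.264 (SD, n = 3) of Lama1 and Lama5 together in D6 Sox1-FOXA2+ cells, 39.4% ± 3.38 in Sox1+FOXA2- cells and 96.8% ± 5.03 in Sox1+FOXA2+ cells. In D6 progeny the share was 98.5% ± 1.83 from Sox1-FOXA2+ cells, 93.0% ± 3.75 from Sox1+FOXA2+ cells and 69.7% ± 11.9 from Sox1+FOXA2- cells. Over the sorted single-positive populations, the share was thus already near its limit at D4, at 98.5% ± 0.799 against 36.1% ± 3.06. The difference at D6 was 60.2 percentage points, and the exact two-sided permutation test of 3 against 3 libraries gave p = 0.1, the smallest it allows (0.136 adjusted over 15 such tests).

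Lamb1 was the main beta chain in every condition. Its share of Lamb1 and Lamb2 was 97.1% ± 0.0355 in D6 Sox1-FOXA2+ cells and 81.8% ± 2.97 in Sox1+FOXA2- cells, and its lowest mean was 63.9% ± 4.29, in the D4 progeny of Sox1+FOXA2- cells. The D6 difference of 15.3 percentage points (exact permutation p = 0.1, 0.136 adjusted) was 10.4 with coding length in place of exon length. Between the nidogens, the share of Nid1 was 52.3% ± 5.68 in D6 Sox1-FOXA2+ cells and 21.4% ± 2.27 in Sox1+FOXA2- cells (30.9 percentage points, exact permutation p = 0.1, 0.136 adjusted). In D6 progeny the shares of Nid1 were 53.1% ± 24.8 and 50.9% ± 3.80 and overlapped. In D4 progeny the difference had the other sign, with 30.2% ± 3.18 from Sox1-FOXA2+ cells and 38.5% ± 0.963 from Sox1+FOXA2- cells (-8.31 percentage points, exact permutation p = 0.1, 0.136 adjusted), and these did not overlap.

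**Figure D3:**
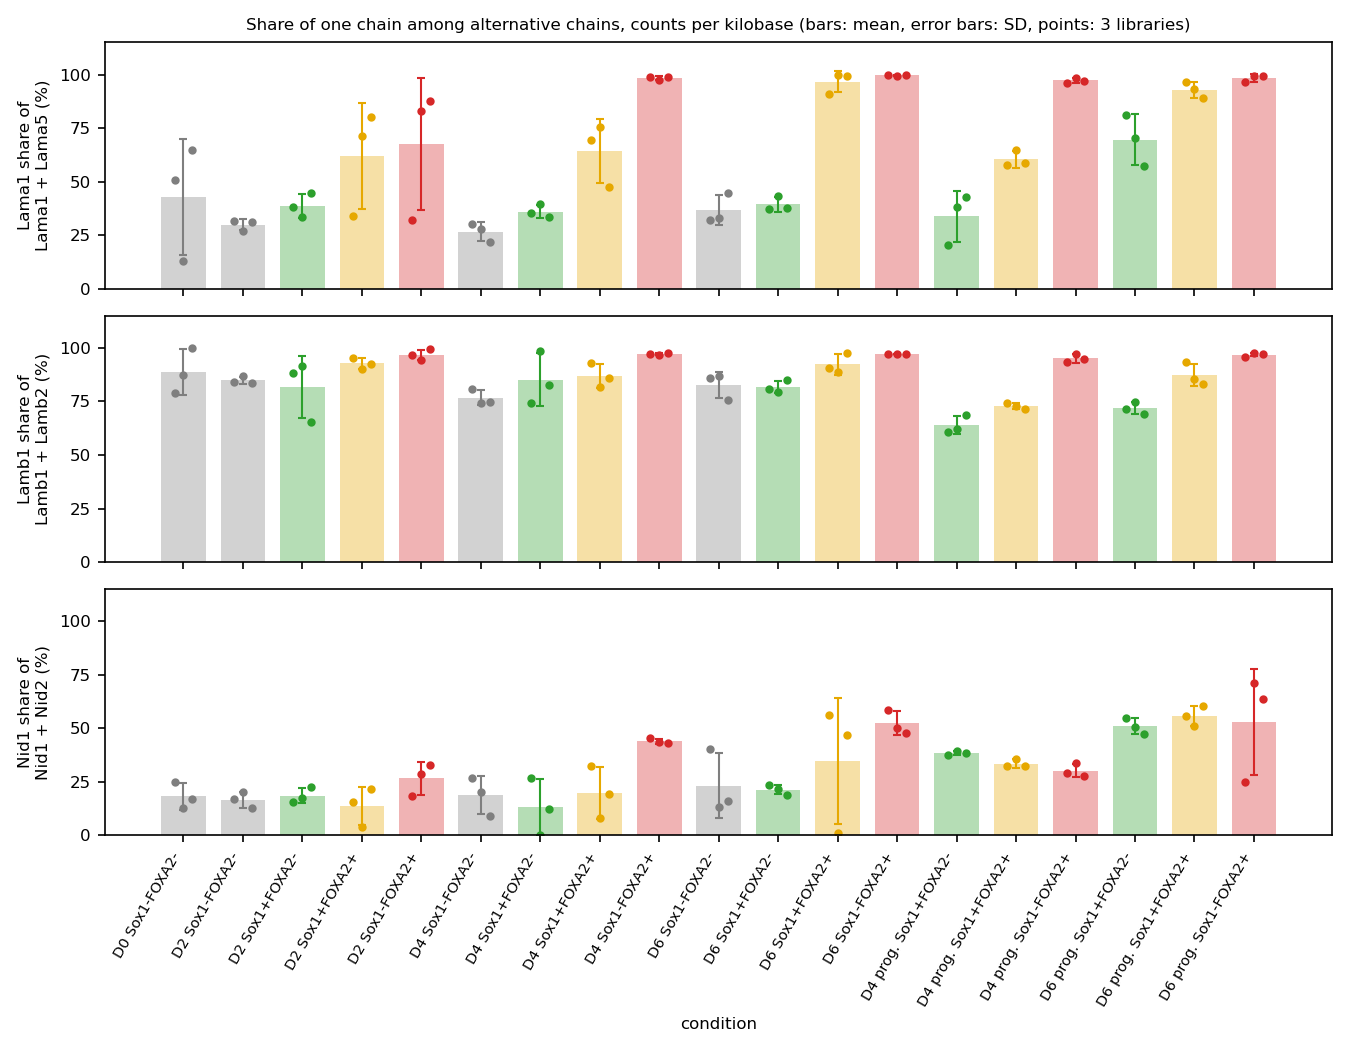
Share (percent) of Lama1 in Lama1 plus Lama5, of Lamb1 in Lamb1 plus Lamb2 and of Nid1 in Nid1 plus Nid2, from counts per kilobase of exon, in each of the 19 conditions; bars are means, error bars SD and points the 3 libraries. The Lama1 share is 99.6% in D6 Sox1-FOXA2+ cells and 39.4% in Sox1+FOXA2- cells.

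Per kilobase, the partners of the gamma chain kept different proportions to it. Alpha chains together stood at 1.18 ± 0.0276 (SD, n = 3) times Lamc1 in D6 Sox1-FOXA2+ cells and 0.713 ± 0.244 times in Sox1+FOXA2- cells, and beta chains at 0.621 ± 0.0769 and 0.617 ± 0.0349 times. Nidogens together stood at 0.165 ± 0.0256 times Lamc1 in the former and 1.16 ± 0.372 times in the latter. The corresponding ratios of Hspg2 were 0.0836 ± 0.0168 and 0.572 ± 0.205. The nidogen and perlecan ratios to the gamma chain were thus lower in Sox1-FOXA2+ cells, whereas the normalized counts of both nidogens and of Hspg2 were higher in every library of these cells. No test was made of the ratios. Their size rests on merged exon length, which is 8272 bases for Lamc1 and 9681 for Lama1, where the coding lengths are 4821 and 9249. The ratios were not computed with coding length, so whether one chain stands above another is not settled by them.

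Across conditions the 8 genes together took 0.0795% ± 0.0337 (SD, n = 3) of all counts at D0, 0.0913% ± 0.0283 in D6 Sox1+FOXA2- cells and 2.64% ± 1.18 in D6 Sox1-FOXA2+ cells. In D6 progeny of Sox1-FOXA2+ cells they took 3.45% ± 1.09. On the scale of normalized counts per kilobase, Lama1 (40590 ± 19058) and Lamc1 (34878 ± 17228) led in D6 Sox1-FOXA2+ cells, followed by Lamb1 (20469 ± 8358), then by Nid1 (3131 ± 2014), Hspg2 (3025 ± 1894) and Nid2 (2647 ± 1068), then by Lamb2 (615 ± 253) and Lama5 (144 ± 78.5). At D0 the highest was Nid2 (1126 ± 402). These orders rest on merged exon length, and coding length was not tried for them.

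**Figure D4:**
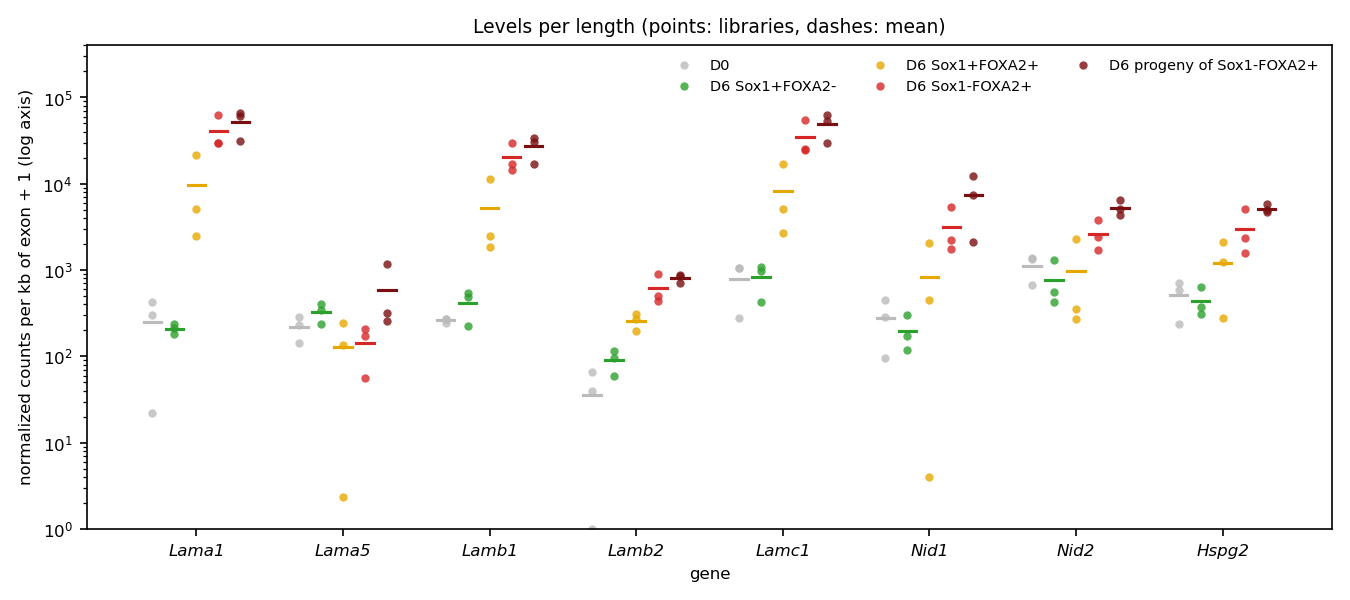
Normalized counts per kilobase of exon plus 1 (log axis) of the 8 genes in 5 conditions; points are libraries and dashes the means of 3. In D6 Sox1-FOXA2+ cells Lama1, Lamb1 and Lamc1 average 20469 to 40590 and Lama5 144.

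Ordered by mean level over the 19 conditions, the first 4 places of Lama1, Lamb1 and Lamc1 were the D6 progeny of Sox1-FOXA2+ cells, D6, D4 and D4 progeny of the same gate, in that order for each, and each neighbour in it overlapped the next. For Lama1, 15 of 18 pairs of neighbours overlapped, with gaps below the D6 progeny of Sox1+FOXA2+ cells, the D4 progeny of the same gate and D2 Sox1-FOXA2- cells. For Nid2 the single gap of the 18 lay below the D6 progeny of Sox1-FOXA2+ cells. Hspg2 had overlaps at all 18.

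The genes most like Lama1 over the 19 condition means (log2 CPM, 29606 genes) were Lamb1 (Pearson r = 0.986), Lamc1 (0.971), Col4a1 (0.969), Ctsl (0.967) and Gata4 (0.958). Col4a1 codes for a chain of collagen IV, Ctsl for a lysosomal protease and Gata4 for an endoderm transcription factor. Lamc1 was nearest to Lamb1 (0.983), and Ctsl, Lgmn and Plod2 stood among its 5 nearest. Nid1 was nearest to Hspg2 (0.915), Nid2 to Map4 (0.940), Hspg2 to Ndel1 (0.960) and Lamb2 to Tinagl1 (0.964), which codes for a matrix protein of basement membranes. Lama5 was nearest to Btbd10 (0.941), and its r with Lama1 was -0.07. All genes share the same libraries here, so these values are descriptions.

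Of 25 other basement membrane genes compared between the single-positive populations, 3 were higher with FOXA2 and 1 was lower at D6 (median -0.45). Of all genes, 1% were higher in this comparison and 319 of 24203 were called in either direction. The collagen IV chains Col4a1 (7.77 ± 1.24, adjusted p = 0.0192) and Col4a2 (6.54 ± 0.91, adjusted p = 4.08e-03) and the collagen-binding Sparc (6.01 ± 0.71, adjusted p = 4.63e-04) were higher, and Col18a1 was lower (-2.08 ± 0.51, adjusted p = 0.0410). In D6 progeny 7 were higher and 2 lower, beside 3.59% of all genes higher and 1456 of 21069 called in either direction. The higher genes were led by Ntn4 (3.94 ± 0.56, adjusted p = 6.05e-04), a netrin that binds laminin gamma chains, and by Col4a1 (3.53 ± 0.48, adjusted p = 7.17e-04). Hmcn1 was lower (-3.52 ± 0.77, adjusted p = 0.0263). These counts over all genes apply to the lists below as well.

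Among 15 receptors of laminin and nidogen, which include integrin subunits, dystroglycan and syndecans, 1 gene, Sdc4, was higher in Sox1-FOXA2+ cells at D6 and was also the only one called in D6 progeny. Sdc4, a heparan sulfate proteoglycan of the cell surface, differed by 3.34 ± 0.50 (adjusted p = 1.42e-04) and 3.45 ± 0.22 (adjusted p = 1.32e-06). Integrin subunits of the main laminin receptor, Itga6 (0.68, adjusted p = 0.576) and Itgb1 (1.15, adjusted p = 0.190), were not called at D6, nor was Dag1, which codes for dystroglycan (-0.56, adjusted p = 0.665). Itga6, Itgb1 and Dag1 are named for their role, after their values were seen. Of 16 genes of heparan sulfate synthesis and editing, which make the chains that perlecan carries, Hs3st1 was the only one called at D6 (4.78 ± 0.54, adjusted p = 1.50e-06). In D6 progeny Hs3st1 (3.74 ± 0.50, adjusted p = 8.83e-04) and Hs6st1 (1.91 ± 0.28, adjusted p = 5.57e-04) were higher and Sulf1 was lower (-2.43 ± 0.59, adjusted p = 0.0384). Of 9 enzymes that build the laminin-binding glycan of dystroglycan, 8 were tested and 0 were called in either comparison (medians 0.49 and -0.12).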

How the data were processed

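Bulk RNA-seq was done on 57 libraries of a mouse embryonic stem cell line, prepared with a stranded SMART-Seq kit. The authors aligned the reads to GRCm38 with STAR and SAMtools and counted them per gene with featureCounts against GENCODE M21, and deposited the whole-number counts of all libraries in 1 table. Strand and multi-mapping settings of the counting are not given in the sources used here. All 55450 gene identifiers matched GENCODE M21, and 92 lines without a gene, which held 0 counts, were left out.

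Groups followed the sample labels. For each comparison, edgeR 4.0.16 (R 4.3.3, limma 3.58.1) was run on the deposited counts with TMM scaling, the default filter (minimum count 10, total 15) and the robust quasi-likelihood test, on the groups of that day or gate, and p-values were adjusted over all genes tested (called below 0.05). The step was also run on counts simulated with its own estimates of the spread, which cannot show how it handles outlying libraries. The SE was taken from the log2 fold change and its F statistic. Robust estimation was chosen after a run without it had been seen, to match an earlier processing of these data. Levels are counts over DESeq2 1.42.0 size factors, and levels per kilobase use merged exon length. Likeness was Pearson's r over 19 condition means of log2 CPM (prior count 2). Figures and joins used Python 3.11.15, pandas 2.3.3, numpy 2.4.6 and matplotlib 3.10.9.

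The 8 genes and all gene lists were chosen with earlier results of these data known. Of the other lists, the genes named are those called at D6 or in D6 progeny, up to 4 per list by size. One further list is not reported here. The edgeR p-values rest on the spread between the 3 replicates of each condition, estimated over all groups in a fit together and with information shared between genes. Library totals ran from 10170632 to 81845651, and no libraries held identical counts. Same-numbered replicates deviated together, with every correlation of deviations over 0.1 across 5000 genes, in 15 of 41 comparisons (range over all -0.414 to 0.596), which was taken as pairing there. Alternatives were DESeq2's Wald test, no filter, other sets of libraries in the fit, a replicate block, coding length and leaving out each library.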

Additional observations from a re-analysis of the deposited data

Results flagged for a closer look

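Between D2 and D6 the difference between Sox1-FOXA2+ and Sox1+FOXA2- cells changed for 5 of the 8 genes, by the test of that change itself (edgeR's quasi-likelihood test, log2 scale). All 5 changes were positive, beside 0.422% of 22532 genes. The change was 4.79 for Lamb1, 4.94 for Lamc1 and 4.47 for Lamb2, which code for laminin chains. It was 3.59 for Nid1 and 2.18 for Nid2, the nidogens that bind them. For Lamb2 and Nid2 it includes a turn of sign, from D2 differences of -1.48 and -0.15. Of the 12 fits that each left out 1 library, Nid1 lost its call in 6 (adjusted p up to 0.169) and Nid2 in 8 (up to 0.171). With all 57 libraries in 1 fit, Lamb2, Nid1 and Nid2 were not called (adjusted p = 0.177, 0.399 and 0.304).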

How the results depend on the processing

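Over the 61 results called in the report (1 gene in 1 comparison each), 61 kept their direction and their call with DESeq2's Wald test, 60 without a filter on low counts, 57 without robust estimation of the spread (chosen after seeing the data), 54 with the replicate block, 50 of 56 with only the 2 groups compared in the fit and 42 with all 57 libraries in 1 fit, and 307 of 396 fits that left out 1 library kept the call. None of the 61 turned its direction in these fits. With 3 libraries a group, genes at a few counts per library, such as Nid1 in some D4 and D6 libraries, could not be compared closely, and the exact tests of shares could not go below p = 0.1. The causes of the moves below were not tested.

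The share of all genes called is not given for the alternative settings, here or in the paragraphs below. Counts of called genes under these settings are therefore not read as results about the 8 genes. The number of the 8 genes called moved with the setting. With DESeq2's Wald test it was 1 for Sox1+FOXA2+ against Sox1-FOXA2+ cells and 2 for Sox1-FOXA2+ against Sox1-FOXA2- cells at D2 (0 and 0 with edgeR), 4 for Sox1+FOXA2+ against Sox1+FOXA2- and 4 against Sox1-FOXA2+ cells at D6 (1 and 0), and 2 for Sox1+FOXA2+ against Sox1+FOXA2- progeny at D6 (0). For Sox1+FOXA2- cells it was 4 between D6 progeny and D2 (0) and 5 between D6 progeny and D6 (3). For Sox1-FOXA2+ cells it was 2 between D2 and D0 (1), 2 between D6 and D4 progeny (0) and 1 between D6 progeny and D6 (0). For Sox1+FOXA2+ cells it was 3 between D6 and D2 (0) and 6 between D6 progeny and D2 (1), and for the change of the single-positive difference between D6 progeny and D6 it was 2 (0).

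Without a filter on low counts the number was 2 for the single-positive comparison, 3 for Sox1+FOXA2+ against Sox1-FOXA2+ and 2 for Sox1-FOXA2+ against Sox1-FOXA2- cells at D2, 5, 6 and 5 for the same comparisons at D4 (3, 3 and 3 with the filter), 0 for Sox1+FOXA2+ against Sox1+FOXA2- cells at D6 and 3 in D6 progeny. Between D2 and D0 it was 1 for Sox1-FOXA2-, 3 for Sox1+FOXA2-, 3 for Sox1-FOXA2+ and 2 for Sox1+FOXA2+ cells. For Sox1+FOXA2- cells it was 5 between D6 progeny and D2, 1 between D6 and D4 progeny and 6 between D6 progeny and D6. For Sox1-FOXA2+ cells the last pair of comparisons gave 4 and 3. For Sox1+FOXA2+ cells it was 7 between D6 and D2, 6 between D6 progeny and D2, 3 between D6 and D4 progeny and 3 between D6 progeny and D6. For the change of the single-positive difference between D6 progeny and D6 it was 6.

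With the replicate block the number was 5 for the single-positive comparison and 5 for Sox1+FOXA2+ against Sox1-FOXA2+ cells at D4, 0 for Sox1+FOXA2+ against Sox1+FOXA2- cells at D6 and 2 in D4 progeny, 0 between D2 and D0 and 1 between D6 progeny and D2 in Sox1+FOXA2- cells, and 3 between D6 and D2 in Sox1-FOXA2+ cells. In the comparisons taken as paired, the block changed no call of the 8 genes other than the 9 given beside the results. The difference of Lama5 between the single-positive D6 progeny was -0.15 with the block (0.03 without it) and ran from -1.03 to 0.40 on leaving out 1 library each, with -1.03, -0.09 and -0.20 without replicate 1 of Sox1-FOXA2+ progeny and replicates 1 and 3 of Sox1+FOXA2- progeny.

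With only the 2 groups compared in the fit the number was 1 for Sox1-FOXA2+ against Sox1-FOXA2- cells at D2, 0 for Sox1+FOXA2+ against Sox1+FOXA2- cells at D6 and 0 in D4 progeny. In Sox1+FOXA2- cells it was 0 between D2 and D0, 4 between D6 progeny and D2 and 7 between D6 progeny and D6, and in Sox1+FOXA2+ cells 6 between D6 progeny and D2 and 3 between D6 and D4 progeny. With all 57 libraries in 1 fit it was 3 for the single-positive comparison in D4 progeny and 3 in D6 progeny (5 and 6), 3 and 2 for Sox1+FOXA2+ against Sox1+FOXA2- and Sox1-FOXA2+ cells at D6, 0 for Sox1+FOXA2+ against Sox1+FOXA2- progeny at D4 and 1 for Sox1+FOXA2+ against Sox1-FOXA2+ progeny at D6. Between days it was 0 for D2 against D0 in Sox1+FOXA2- cells, 3 for D6 against D2 in Sox1-FOXA2+ cells, 3 for the same in Sox1+FOXA2+ cells, 6 for D6 progeny against D2 in Sox1+FOXA2+ cells and 3 for the change of the single-positive difference from D2 to D6. Without robust estimation it was 3 for Sox1+FOXA2+ against Sox1+FOXA2- cells at D6 and 0 in D4 progeny, 0 for D2 against D0 and 1 for D6 progeny against D2 in Sox1+FOXA2- cells, 2 for D2 against D0 in Sox1-FOXA2+ cells, and 3 for D6 and 6 for D6 progeny against D2 in Sox1+FOXA2+ cells.

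On leaving out each library in turn, the number ran from 1 to 3 at D4 and 2 to 5 at D6 for the single-positive comparison and from 3 to 5 in D4 progeny. For Sox1+FOXA2+ cells it ran from 0 to 2 against Sox1+FOXA2- and 0 to 4 against Sox1-FOXA2+ cells at D6, and from 2 to 5 against the latter in D6 progeny. For Sox1-FOXA2+ against Sox1-FOXA2- cells it ran from 0 to 1 at D2 and 1 to 5 at D6. Between days it ran from 0 to 2 (D2 against D0) and 1 to 3 (D6 progeny against D6) in Sox1+FOXA2- cells, from 3 to 6 (D6 against D2), 0 to 1 (D6 against D4 progeny) and 0 to 1 (D6 progeny against D6) in Sox1-FOXA2+ cells, and from 0 to 1 for D6 against D2, D6 progeny against D2 and D6 progeny against D6 in Sox1+FOXA2+ cells. For the change of the single-positive difference it ran from 3 to 6 (D2 to D6) and 0 to 2 (D6 to D6 progeny).

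With coding length the difference in the share of Lamb1 between the single-positive populations was 10.4 percentage points for D6 cells, 23.0 for progeny of D4 and, for progeny of D6, 17.8 (15.3, 31.2 and 25.2 with exon length). The difference in the share of Nid1 in D6 progeny, 2.19 percentage points, was -6.75 without replicate 2 and -3.0 without replicate 3 of Sox1-FOXA2+ progeny, and up to 16.3 without another library.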
